A study of Mus musculus with 9 samples.

Results

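The regions described here were open in all 3 ATAC-seq libraries of a mouse osteosarcoma cell line carrying p53 R245W and in none of the 6 libraries of 2 companion lines. They were chosen by their peak calls: peaks of all 9 lists sharing at least 1 bp were joined into regions, and 7188 of the 124230 regions (5.79%) met this rule, on the GRCm38 genome build. ATAC-seq uses the Tn5 transposase to cut accessible DNA, and a peak is a site with more cuts than its surroundings. The R245W line (941) had the genotype p53R245W/-, the R172H line (424) had p53R172H/-, and the null line (561) had p53-/-, so the lines with a mutant allele had no second p53 allele. All 3 came from primary murine osteosarcomas and were grown in the same serum-containing medium. Each genotype was 1 line with 3 libraries, so an effect of the p53 allele cannot be told apart from any other difference between the tumours. No label states that the 3 libraries of 1 line were separate cultures, and p-values therefore measure the spread between libraries, which may be technical. The lists held 65199 to 79424 peaks per library, and the R245W lists were the longest. A region missing from a list has no value there, so "not called" means below the peak caller's threshold and not closed.

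p53 is a transcription factor that binds DNA through its core domain, where tumour mutations concentrate. R172H and R245W are both substitutions in that domain. Osteosarcoma cells descend from the mesenchymal lineage that forms bone. Open regions at gene starts mark promoters, and most regions that differ between cell states lie away from promoters, at enhancers, which are bound by lineage and signal-dependent factors such as AP-1, RUNX and TEAD proteins.

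The R245W-only regions reached a few promoters, and their sequences show the range of base composition among them. Of 32817 promoters in the RefSeq table (GRCm38.p6, 250 bases before to 50 after each start), 297 of 268 genes had their start site inside an R245W-only region. The first 3 sequences below are promoters rich in CpG, from some of the strongest of these regions, and the fourth is poor in CpG. Capitals mark every CpG dinucleotide, and each sequence is written 5′ to 3′ on the strand of its gene. Irx2 encodes a homeobox factor of limb and organ patterning, Nrxn3 a synaptic adhesion protein, Tmem47 a membrane protein of cell junctions and Wasf3 a regulator of actin.
Irx2, chr13:72628570-72628869, plus strand: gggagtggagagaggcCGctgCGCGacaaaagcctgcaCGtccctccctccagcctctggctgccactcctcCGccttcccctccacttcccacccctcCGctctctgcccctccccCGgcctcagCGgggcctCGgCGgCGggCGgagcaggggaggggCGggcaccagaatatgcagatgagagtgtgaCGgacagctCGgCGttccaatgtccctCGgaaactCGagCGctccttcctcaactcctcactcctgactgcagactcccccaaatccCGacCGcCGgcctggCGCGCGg
Nrxn3, chr12:89812233-89812532, plus strand: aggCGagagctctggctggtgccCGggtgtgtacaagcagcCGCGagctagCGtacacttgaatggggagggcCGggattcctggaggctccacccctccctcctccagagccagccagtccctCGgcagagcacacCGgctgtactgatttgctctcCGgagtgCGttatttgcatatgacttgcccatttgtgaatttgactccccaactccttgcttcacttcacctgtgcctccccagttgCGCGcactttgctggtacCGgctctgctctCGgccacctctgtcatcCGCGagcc
Tmem47, chrX:81070394-81070693, plus strand: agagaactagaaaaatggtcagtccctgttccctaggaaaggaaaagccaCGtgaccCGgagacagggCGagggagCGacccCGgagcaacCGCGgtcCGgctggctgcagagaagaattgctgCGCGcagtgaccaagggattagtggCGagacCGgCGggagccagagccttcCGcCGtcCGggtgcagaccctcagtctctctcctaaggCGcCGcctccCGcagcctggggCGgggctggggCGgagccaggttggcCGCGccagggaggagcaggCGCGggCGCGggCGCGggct
Wasf3, chr5:146384756-146385055, plus strand: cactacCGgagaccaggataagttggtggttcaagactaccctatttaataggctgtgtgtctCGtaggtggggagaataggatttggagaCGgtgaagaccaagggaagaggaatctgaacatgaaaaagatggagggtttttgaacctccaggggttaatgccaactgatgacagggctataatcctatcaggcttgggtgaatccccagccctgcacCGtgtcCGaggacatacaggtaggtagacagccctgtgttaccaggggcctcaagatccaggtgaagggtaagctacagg

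The Irx2 promoter held 25 CpG, Nrxn3 16, Tmem47 29 and Wasf3 5. Over the 297 promoters the median was 9 CpG, with a GC content of 53.7% and a ratio of observed to expected CpG of 0.454. The 13100 promoters in regions called in all 9 libraries had medians of 22 CpG, 62% GC and a ratio of 0.784. All promoters of the table had medians of 7 CpG, 52.7% GC and a ratio of 0.383. Promoters in R172H-only and null-only regions had medians of 6 and 5 CpG and ratios of 0.316 and 0.261. The promoters in R245W-only regions were thus close to the whole table in base composition. They were less rich in CpG than those open in every library and richer than those of the other line-specific sets.

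The AP-1 motif was the second reason to print promoters. AP-1 proteins, dimers of the Fos and Jun families, bind TGANTCA, which was found on either strand of 39 of the 297 promoters (13.1%). It was found in 5.14% of promoters open in all 9 libraries, in 7.81% of all promoters, in 10.9% of the 348 promoters in R172H-only regions and in 11.9% of the 67 in null-only regions. The 2 strongest R245W-only regions at named genes with this motif lay at Akap1, which encodes an anchor of protein kinase A, and Gzmb, which encodes the protease granzyme B. Capitals mark the AP-1 match.
Akap1, chr11:88851454-88851753, minus strand: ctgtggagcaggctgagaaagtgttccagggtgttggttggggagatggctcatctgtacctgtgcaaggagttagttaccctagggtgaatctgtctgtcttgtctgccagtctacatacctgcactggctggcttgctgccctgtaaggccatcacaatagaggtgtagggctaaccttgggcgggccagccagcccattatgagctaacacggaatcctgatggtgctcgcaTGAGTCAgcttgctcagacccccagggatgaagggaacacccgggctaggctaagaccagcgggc
Gzmb, chr14:56262285-56262584, minus strand: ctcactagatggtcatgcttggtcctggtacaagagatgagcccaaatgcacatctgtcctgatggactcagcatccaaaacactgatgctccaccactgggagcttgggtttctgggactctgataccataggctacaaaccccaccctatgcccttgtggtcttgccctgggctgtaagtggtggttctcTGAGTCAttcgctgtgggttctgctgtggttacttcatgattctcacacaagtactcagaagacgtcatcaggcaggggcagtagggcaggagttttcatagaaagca

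The Akap1 region had pile-ups of 134, 128 and 134 in R245W libraries 1, 2 and 3, and the Gzmb region had 78, 104 and 80. The pile-up is the number of fragments stacked at the peak's summit, solved here from the deposited fold and p. Both were picked for strength and so lay above the medians over all R245W-only regions, 37, 42 and 38 in the 3 libraries.

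Other motifs were found at the following shares. The ETS motif CCGGAAG was in 1.35% of the 297 promoters, against 18.2% of those open in all 9 libraries and 8.86% of the table, and against 4.31% of promoters in R172H-only and 4.48% of those in null-only regions. The GC box GGGCGG was in 36.4%, against 66.9% and 35.6%. RUNX (TGTGGT) was in 17.2% and TEAD (GGAATG) in 11.8%, with 16.8% and 14.7% in the whole table. Both shares were larger in the other line-specific sets, 21.3% and 20.7% in R172H-only and 28.4% and 17.9% in null-only regions. The p53 half-site was in 8.42%, against 8.36% in the whole table. The search covered both strands, and a match is a string of letters and not a bound site.

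The third set shown is a microRNA locus. The hairpins of 4 of 1005 microRNA genes in the table overlapped an R245W-only region. An R172H-only region was overlapped by 11, a null-only region by 1 and a region called in all 9 libraries by 111. The best known is Mir9-2, a copy of the neural microRNA miR-9, at chr13:83738814-83738885, plus strand. Its mature arms are printed with the seed, bases 2 to 8, in capitals.
miR-9-5p: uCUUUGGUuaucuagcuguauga
miR-9-3p: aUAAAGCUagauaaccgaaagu

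The region at Mir9-2 had pile-ups of 46, 39 and 44, near the typical R245W-only region. An annotated hairpin on the opposite strand of the same site, miR-9b, lies in the same region. It is counted among the 4 and is not a separate finding.

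Most R245W-only regions were weak peaks. Their pile-ups ranged from 14 to 514, and their medians of 37, 42 and 38 compare with 136, 153 and 140 in the same libraries at the 36473 regions called in all 9. The median fold over local background, as the authors' peak caller gave it, was 4.81, 4.79 and 4.60. Strength was summarised as the lowest rank of a region's −log10 q over the 3 R245W lists, as a percentile within each list. The median was the 23.8th percentile, 991 regions (13.8%) lay above 50, 33 above 80 and 4 above 90. These values come from the lists that chose the regions and describe them only.

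The other lines had line-specific regions of their own. There were 12214 R172H-only regions, with a median strength of 32.3 and 488 above the 80th percentile, and 3402 null-only regions, with a median of 23.1 and 15 above 80. The R245W-only set therefore held fewer regions than the R172H-only set and fewer strong ones, and it resembled the null-only set in strength. Among regions called in all 3 R245W lists, the share that was R245W-only fell from 32.6% below the 10th percentile to 7.47% between 50 and 60, and to 0.0587% above 90.

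**Figure D1:**
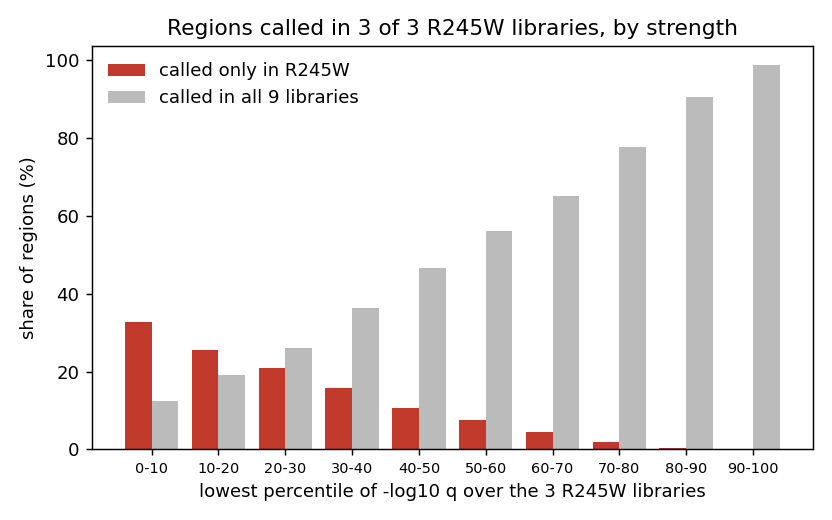
Regions called in 3 of 3 R245W libraries, split by strength (lowest percentile of −log10 q over the 3 lists, horizontal axis); bars give the share of regions (%) called in no other library (red) and in all 9 (grey). The red share falls from 32.6% to 0.0587% while the grey share rises from 12.5% to 98.7%.

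The rule's edges were populated. A further 3174 regions were called in 2 of 3 R245W libraries and no other, with a median strength of 8.03 and a median pile-up of 25. Another 1987 were called in 3 of 3 R245W libraries and in 1 of the other 6, with a median strength of 25.5 and a median pile-up of 40.7. The single outside call was in a null library for 1190 of them and in an R172H library for 797.

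How often the third call was made can be read from the lists themselves, as a description, since the rule uses the same calls. Of the regions called in 2 R245W libraries and none of the 6 others, the left-out R245W library called 87.5%, 90.9% and 83.4%. The mean was 87.3% ± 3.75 (SD, n = 3), against 89.9% ± 1.38 for the same count in the R172H line and 86.0% ± 1.43 in the null line. The R245W rate minus the mean of the other 6 libraries was -0.668 points, less than the SD of the R245W libraries.

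The same single outside calls can be given per library, again as a description. Of the regions called in 3 of 3 R245W libraries and in none of the 5 others, the null libraries called 5.05%, 5.71% and 4.93% and the R172H libraries 3.48%, 3.94% and 3.27%. The means were 5.23% ± 0.418 and 3.56% ± 0.344 (SD, n = 3 each), a difference of 1.67 points with no overlap.

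The strongest R245W-only region lay 24.9 kb from an end of Ccr1, a chemokine receptor gene of myeloid cells, at chr9:123936289-123937204. Its pile-ups were 491, 514 and 492 (499 ± 13, SD, n = 3), and its rank was at least the 97.2th percentile in each list. A second R245W-only region near Ccr1 had 209, 248 and 220. These were 2 of the 5 regions assigned to Ccr1.

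The second strongest, at chr13:72627972-72629503, covered a RefSeq start site within Irx2, 3.54 kb from an end of the gene. Its pile-ups were 349, 393 and 375 (372 ± 22.1). The other regions above the 90th percentile lay within Aff1 (293, 369 and 316), a gene of a transcription elongation complex, 0.684 kb from an end, and at the start of the unnamed transcript 1700030C10Rik (287, 349 and 308). Below these came regions 15.4 kb from an end of Chrm2, a muscarinic acetylcholine receptor gene (235, 253 and 220), and at a start site within the long Nrxn3 gene (251, 284 and 236). A region 69.9 kb from an end of Creb5, which encodes a cyclic AMP response factor, had 188, 232 and 200. The Nrxn3 region lay 522 kb from a gene end. A further 4 of the top 12 lay outside protein-coding genes and over 100 kb from the nearest end of such a gene. The regions nearest Hsf2 (189, 222 and 202) and Ipo11 (248, 255 and 223) lay 338 and 490 kb away. Those nearest Fam135b (202, 226 and 220) and Nufip1 (199, 260 and 239) lay 820 and 117 kb away. A RefSeq start site lay closer in each case, at 27252 bp (Hsf2), 417523 bp (Ipo11), 693594 bp (Fam135b) and 2856 bp (Nufip1). These regions were picked by their lowest rank over the same 3 libraries. Pile-ups far above the set's medians of 37 to 42 follow from that choice.

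Runx1, a gene for a RUNX family factor of blood and skeletal development, had 4 R245W-only regions among 23 assigned. The strongest had pile-ups of 185, 238 and 183, and the other 3 ranged from 23 to 43. Runx3 also had 4 among 21, from 35 to 148. Neither gene had an R245W-only region within 1 kb of an end.

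The Irx genes held dense groups of R245W-only regions. They encode homeobox factors in 2 clusters, Irx1, Irx2 and Irx4 on chromosome 13 and Irx3, Irx5 and Irx6 on chromosome 8, and they pattern limbs, heart and neural tissue. Between the outer ends of Irx1 and Irx4 (chr13:71958232-73269622), 12 of 33 regions (36.4%) were R245W-only. Between those of Irx3 and Irx6 (chr8:91798511-92680956), 14 of 40 (35.0%) were, against 5.79% over all regions. With 1 Mb added on each side the counts were 26 of 130 (20%) and 31 of 179 (17.3%). These clusters were singled out after their values were seen, and the counts describe them only.

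The 2 clusters differed in strength and in what the other lines had. The chromosome 13 interval with 1 Mb on each side held 4 of the 33 R245W-only regions above the 80th percentile, 4 R172H-only regions and 0 null-only regions. The chromosome 8 interval, extended likewise, held none above 80, 16 R172H-only and 10 null-only regions. All 4 regions assigned to Irx1 were R245W-only, with pile-ups of 193, 236 and 211 at 47.5 kb, 134, 141 and 126 at 0.662 kb, 276, 336 and 301 over a gene end (chr13:71962207-71964550), and 32, 37 and 36 at 23.1 kb from an end. An end of Irx1 was open in 3 R245W libraries and in none of the other 6, as was an end of Irx6 (94, 88 and 105). An end of Irx2 was open in 3 null libraries as well and in no R172H library. The R245W-only region at Irx2 lay at a start site within the gene and not at that end. Ends of Irx3 and Irx5 were open in all 9 libraries, and those of Irx4 in none.

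**Figure D2:**
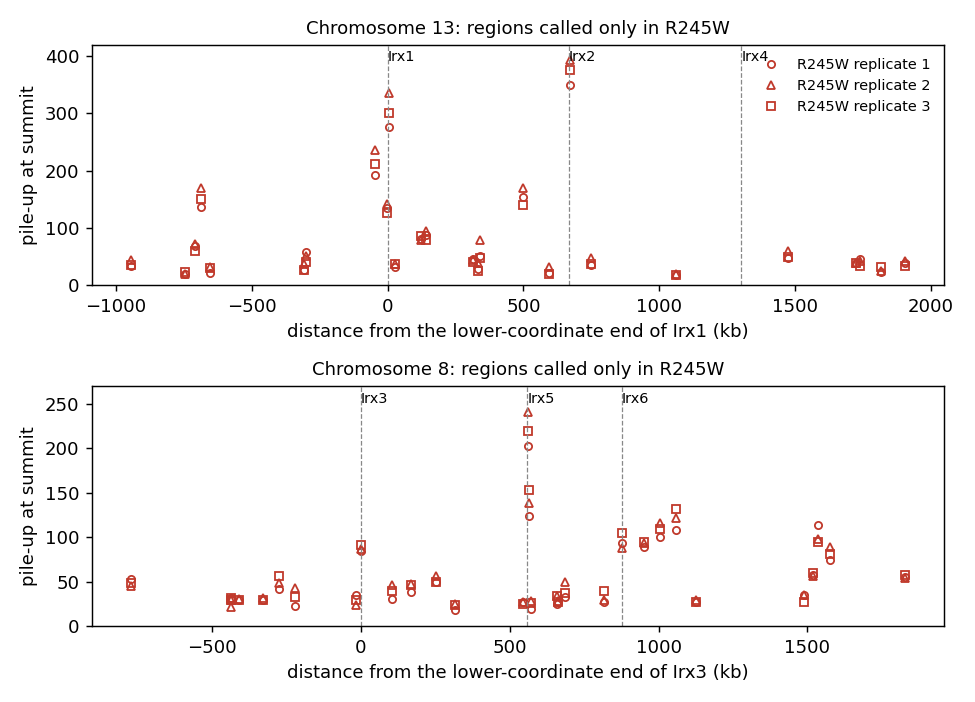
Pile-up at the summit of each R245W-only region around the Irx clusters, one symbol per R245W library; the horizontal axis is the distance (kb) from the lower-coordinate end of Irx1 (top) or Irx3 (bottom), with dashed lines at the lower-coordinate end of each gene. The tallest symbols stand at Irx2 (349 to 393) and Irx1 (276 to 336) above, and at Irx5 (202 to 241) below.

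Genes with R245W-only regions were counted by assigning each region to its closest protein-coding gene, where an end of that gene lay within 50 kb. This gave 4475 assigned regions, and 3556 of 21900 genes (16.2%) had 1 or more. The median gene had 0, 713 genes had 2 or more and 157 had 3 or more. Of all 90477 assigned regions, 4.95% were R245W-only, which is the share to set beside each gene group below.

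Sash1, which encodes a signalling scaffold protein, had the most, 7 of its 22 regions, over 296 kb. Their pile-ups ranged from 20 to 138, and the tallest lay 46.2 kb from an end (128, 130 and 118) and over a gene end (108, 138 and 100). Zfp536, a gene for a zinc finger repressor of neuronal differentiation, had 6 of 12, the strongest 134, 145 and 134. Col15a1, encoding a basement membrane collagen, had 6 of 24, all under a pile-up of 69, and Col25a1, encoding a transmembrane collagen of neurons and muscle, had 5 of 8. Gipc2 and Pigk, which lie near each other on chromosome 3, had 5 of 25 and 5 of 19. The 5 assigned to Pigk lay outside it, 23.4 to 43.8 kb from its end and inside another protein-coding gene. An unbroken run that includes some of them overlapped St6galnac5. Cdc42ep3, which encodes an effector of the Cdc42 GTPase, had 4 of 16, including 1 with pile-ups of 211, 261 and 226. Slc38a1, an amino acid transporter gene, had 4 of 20, including 1 with 256, 308 and 254. Ablim1, Mpped2 and Tcf7l1 had 4 of 17, 4 of 8 and 4 of 19.

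Position in the genome was not used to choose the regions. Of the 7188, 480 (6.68%, Wilson 95% interval 6.12 to 7.28, counting error only) lay within 1 kb of a gene end. Within 1 kb of a tabulated RefSeq start site lay 423 (5.89%), and a region without a start distance counted as not near a start. The share at a gene end was 4.22% of R172H-only and 3.56% of null-only regions, and 32.1% of regions called in all 9 libraries. Of all regions, 13.91% lay at a gene end and 11.96% within 1 kb of a start site, so both R245W-only shares were below these. R245W-only regions were thus mostly distal, like the other line-specific sets, with a somewhat larger share at gene ends than those sets. Of the R245W-only regions, 46.6% lay inside a protein-coding gene and 22.9% lay over 100 kb from any gene end, against 54.3% and 15.2% of all regions. The median width was 614 bp, against 1191 bp for regions called in all 9.

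At gene ends, 473 of 21900 genes (2.16%) had an R245W-only region. After the regions in Aff1 and at Irx1, the strongest were at Tram1l1 (176, 228 and 184), Tmem47 (175, 204 and 169), Fhit (122, 148 and 129), Dguok (137, 149 and 138), Elac1 (129, 121 and 124), Wasf3 (139, 129 and 127), Ecrg4 (122, 149 and 134) and Vsir (191, 226 and 196). A gene end can be either end of the gene. The regions at Tram1l1, Tmem47, Fhit, Wasf3 and Vsir covered a tabulated start site. The nearest tabulated start lay 99380 bp away at Aff1, 176318 bp at Irx1, 27496 bp at Dguok and 11232 bp at Ecrg4, and Elac1 had no value. Both ends of Irx1 lie far nearer than that, so no start of Irx1 itself was tabulated. Whether its region covers the Irx1 start therefore cannot be read from these distances. Fhit lies at a common fragile site, and Vsir encodes an immune checkpoint receptor. Ecrg4 encodes a secreted peptide precursor and Dguok a mitochondrial kinase.

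Genes of limb and skeletal patterning, the longest of the 25 lists, had the largest count. Of 48 genes, 25 had R245W-only regions, 41 of their 402 regions (10.2%), with a median of 1 per gene. Irx5 and Tbx15 each had 4, Meis2 had 3 and Shox2 had 2, and the Irx5 region 0.789 kb from an end had pile-ups of 202, 241 and 219. The 3 stronger regions at Tbx15, a gene needed for the limb and facial skeleton, had 100 to 146, and the stronger Shox2 region had 171, 153 and 181. Six2, a gene for a factor of skeletal and kidney progenitors, had a region on its start site (52, 73 and 53). Ends of Six2 and Alx1 were among those open in all 3 R245W libraries and in no other, although no region was assigned to Alx1. Of the 39 Hox genes, 8 had R245W-only regions (6.52% of 138 regions), Hoxb9 with 2. An end of Hoxc4 was open in the R245W libraries alone, but none of the 10 regions assigned to Hoxc4 was R245W-only. Hox genes are packed closely, so that assignment to a single one is uncertain.

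Osteoblast genes are markers of the labelled tumour type. An end was open in all 3 R245W libraries for 17 of 26 osteoblast genes, among them Runx2, Sp7, Alpl and Col1a1, and in all 9 libraries for 14. This does not single out osteoblast genes, since smooth muscle and pericyte genes had such ends for 13 of 16 and 9 of 16. Ends of 6, among them Bglap, Ibsp and Dmp1, genes of mature osteoblasts and osteocytes, were open in no library. Of their 225 regions, 10 (4.44%) were R245W-only, in 8 genes. Col1a2, the type I collagen gene, had 2 (the stronger 93, 98 and 86), as did Tnfsf11, the gene of the osteoclast-inducing cytokine RANKL (38, 46 and 45 at 1.13 kb from an end). Sp7 had 1 (91, 93 and 86) and Mepe 1 (36, 34 and 38). Chondrocyte genes had 3 of 101 regions (2.97%), at Sox6, Col2a1 and Sox5.

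Among marker genes of other cell types the share of R245W-only regions ran from 2.97% for chondrocyte genes to 10.6% for neural genes. Endothelial genes had them in 10 of 16 genes and 9.65% of 114 regions. Emcn had 2 (the stronger 107, 123 and 106), Kdr 1 (72, 73 and 66), Flt1 1 (84, 88 and 80), and Eng, a TGF-beta co-receptor, 1 on its start site (107, 111 and 111). Ends of Eng were open only in the R245W libraries, while 9 of the 16 endothelial genes had no open end in any library. Neural genes had them in 8 of 18 genes and 10.6% of 85 regions, with Pax3 at 2 and Olig2 and Map2 at 1 each, and none at a gene end.

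Epithelial genes had them in 6 of 20 genes and 8.40% of 119 regions. Trp63, a p53 family gene of stratified epithelia, had a region over a gene end (91, 113 and 124) and a second one 38.7 kb away (97, 77 and 74), and Dsp, the desmoplakin gene, had one on its start site (75, 77 and 76). Ends of Trp63 and Dsp were open in the R245W libraries alone. Blood cell genes had them in 4 of 18 genes and 9.52% of 63 regions, at Ccr1, Csf1r, Cx3cr1 and Ptprc. Adipocyte genes had them in 6 of 14 genes (8% of 100 regions), skeletal muscle genes in 5 of 15 (6.58% of 76), and smooth muscle genes in 5 of 16 (4% of 125). No expression was measured, and whether other cell types were present in the cultures was not tested.

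Among pathways, collagens and matrix glycoproteins had R245W-only regions in 15 of 30 genes (5.70% of 474 regions), led by Col15a1. Wnt pathway genes had them in 13 of 44 (5.24% of 382), with 4 at Tcf7l1, a repressor of Wnt targets, and 2 at the inhibitor Dkk2 (67, 84 and 76 at the stronger). BMP and TGF-beta genes had them in 13 of 39 (5.09% of 373), with 3 at Ltbp1, which holds latent TGF-beta in the matrix, and 2 at Bmp5. AP-1 and related factor genes had them in 9 of 27 (5.17% of 290), among them the 8 regions of Runx1 and Runx3, and mesenchymal transition factor genes in 4 of 12 (5.65% of 124). p53 target genes had them in 9 of 30 (7.53% of 146), with 2 each at Perp and Eda2r, 1 at Gadd45a (82, 109 and 99) and 1 at Mdm2 (50, 60 and 50). None lay within 1 kb of a p53 target's end, and 28 of the 30 had an end open in all 9 libraries.

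Several lists lay below the share of all assigned regions. FGF and receptor tyrosine kinase genes had R245W-only regions in 7 of 44 genes (2.03% of 444 regions), matrix metalloproteinase genes in 3 of 19 (2.48% of 121), neuronal adhesion and guidance genes in 10 of 35 (2.98% of 336) and retinoic acid genes in 7 of 20 (4.49% of 156). Cytokine and chemokine genes had them in 6 of 32 (3.72% of 242), and suppressors and oncogenes of osteosarcoma in 6 of 32 (3.51% of 228). The control lists stood at 2.63% of 76 regions for housekeeping genes and 4% of 75 for cell cycle genes. The lists carry no test, since regions are not replicates and the lists were chosen with results of these data known.

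The share of R245W-only regions varied between chromosomes together with the level of shared regions. On chromosome X, 277 of 2757 regions (10.0%) were R245W-only, on chromosome 3 8.27%, on chromosome 13 8.21% and on chromosome 10 8.01%, while chromosomes 11, 18 and 7 had 3.28%, 3.34% and 3.58%. Levels were compared as the median log2 pile-up of the regions that every library called, each library centred on its own median. The R245W libraries were above the other 6 by 0.34 on chromosome 3, 0.25 on chromosome 13 and 0.16 on chromosome X, and below them by 0.50 on chromosome 18, 0.31 on chromosome 7 and 0.24 on chromosome 11. Across the 20 chromosomes Spearman's rho between this difference and the share was 0.937 and Pearson's r 0.852, a description of values that share the same 9 libraries.

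**Figure D3:**
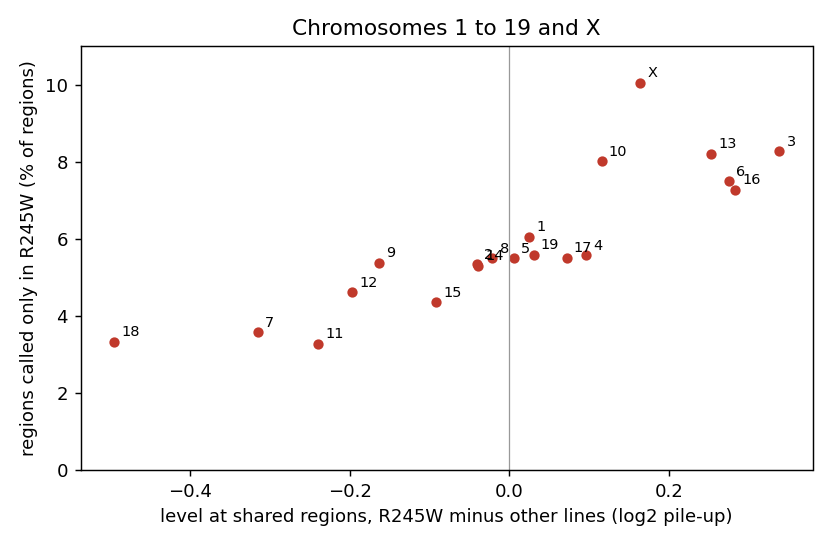
One point per chromosome, labelled with its name; the horizontal axis is the R245W minus other lines difference in median log2 pile-up at shared regions and the vertical axis the share of regions called only in R245W (%). Chromosome 18 (3.34%) stands at the lower left and chromosomes 3 (8.27%) and X (10.0%) at the upper right.

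The same held in windows of 5 Mb. Where the R245W level was at or above that of the other lines, 4435 of 63996 regions (6.93%) were R245W-only, and where it was below, 2390 of 56172 (4.25%). From windows more than 0.4 below the others to windows 0.4 or more above, the share rose from 3.08% to 9.13%. Over the same windows the share of null-only regions fell from 5.56% to 1.79%, and that of R172H-only regions went from 11.7% to 9.13%. The level was 0.45 above the others at Sash1, 0.64 at Col25a1, 0.43 at Runx1, 0.11 at Ccr1, 0.16 and 0.11 at the Irx clusters and 0.02 at Aff1, and it was below them at Zfp536 (-0.19), Mpped2 (-0.29) and Slc38a1 (-0.25). A difference in DNA copies and one in openness over a wide window cannot be told apart from peak lists.

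Regions called in all 9 libraries were not chosen by the rule, and their ranks were tested. Their grouping by distance to R245W-only regions rests on calls of the same 9 libraries, so the p-value below is not independent of the rule. R245W-only regions were also more frequent where the R245W level at shared regions was higher, as given above. Within each library they were ranked by −log10 q, and the mean percentile of the 2849 within 10 kb of an R245W-only region was compared with that of the 17033 over 100 kb from any. Near minus far was -0.656 ± 0.0434 points in R245W libraries, -1.95 ± 0.0462 in R172H libraries and -2.97 ± 0.113 in null libraries (SD, n = 3 each). The R245W value exceeded the mean of the others by 1.81 points, with no overlap (exact permutation test over 84 choices of 3 of 9 libraries, two-sided p = 0.0238, the smallest they allow, Benjamini-Hochberg adjusted 0.0476).

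The direction depended on distance, on the measure and on the local level. With near set at 2 kb the R245W value was lower by 1.90 points (-1.90, exact permutation p = 0.0238). Ranked by fold over local background it was also lower (-3.22), and with each region centred on the median of its 5 Mb window it was slightly lower (-0.224, exact permutation p = 0.0238 for both). Shared regions 5 to 10 kb away ranked 2.85 points higher in R245W than in the other lines by −log10 q, 3.29 higher by pile-up and 1.48 higher by fold. Those within 2 kb ranked -3.26, 0.43 and -11.1 points by the same 3 measures, and their local background ranked 7.85 points higher. Centred on chromosomes the difference was 0.670 points. No single statement on whether neighbouring shared regions were stronger in R245W holds for all of these settings.

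**Figure D4:**
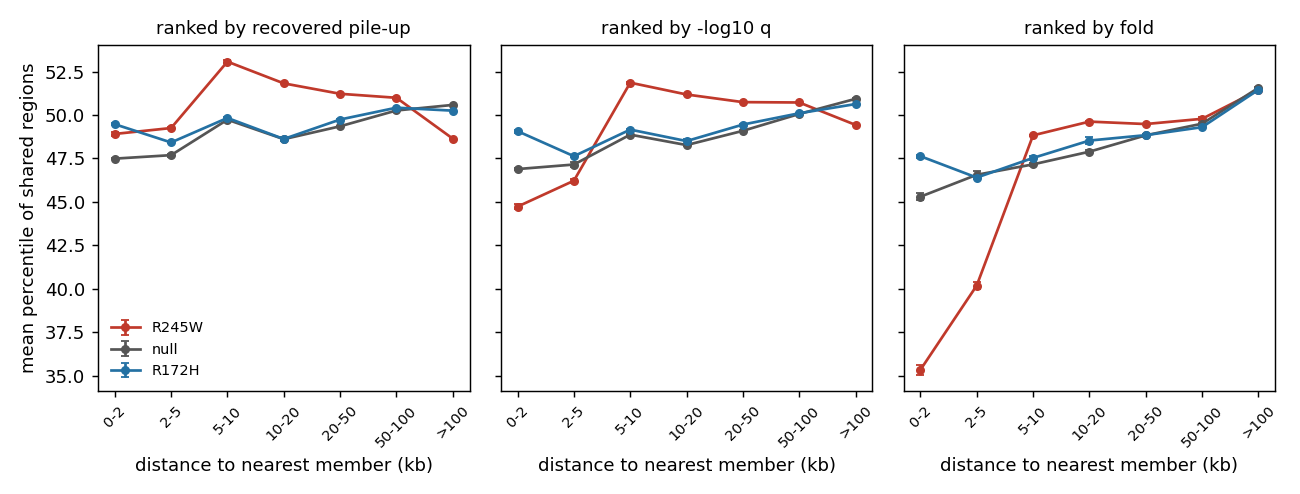
Mean percentile (vertical axis) of regions called in all 9 libraries by distance to the nearest R245W-only region, labelled member (horizontal axis, kb), ranked within each library by pile-up, −log10 q or fold; points are means and bars SD of 3 libraries per line. The R245W line is above the others from 5 to 20 kb in all 3 panels and below them within 2 kb by −log10 q and fold.

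Shared gene ends gave a second measure, at regions that the rule did not choose. The genes were grouped by their R245W-only regions, so this measure is not independent of the rule either. At 430 shared regions on ends of genes with 2 or more R245W-only regions, the mean percentile was set against 9480 on ends of genes with none. The difference was -0.767 ± 0.185 in R245W libraries, -3.49 ± 0.203 in R172H libraries and -7.16 ± 0.194 in null libraries (SD, n = 3 each). R245W exceeded the mean of the others by 4.56 points, with no overlap between lines (exact permutation test, two-sided p = 0.0238, adjusted 0.0476). The excess was 2.67 points for genes with 1 or more R245W-only regions and 6.27 for genes with 3 or more. The gap was widest to the null line, where the 84 shared regions at ends of genes with 3 or more had a mean percentile of 54.5 ± 0.329, against 66.1 ± 0.422 in R245W and 66.3 ± 0.336 in R172H. Centred on chromosomes it was 2.79 points. Centred on the 5 Mb windows, an alternative added after the data were seen, the excess was 1.81 points and did not pass (exact permutation p = 0.262), and ranked by fold it was -0.822 (p = 0.476, exact permutation).

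**Figure D5:**
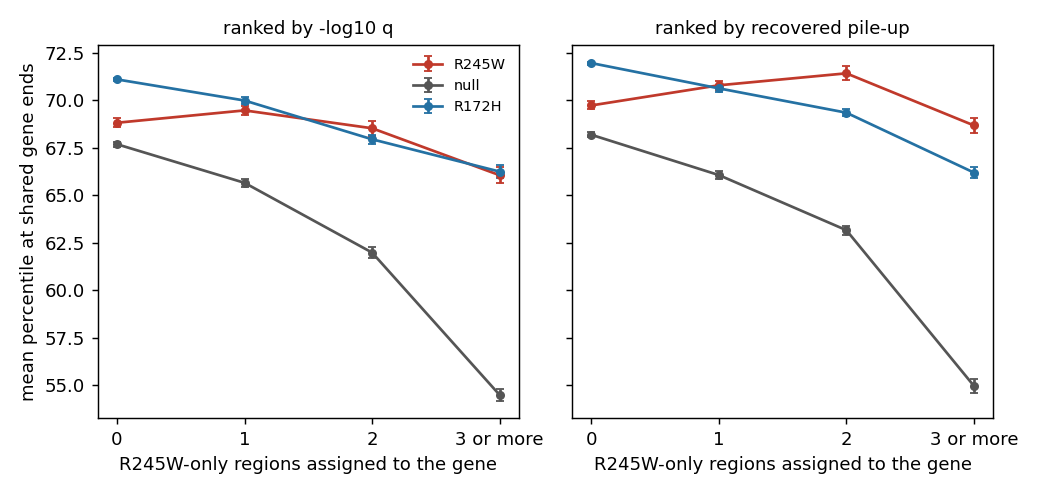
Mean percentile of shared regions at gene ends (vertical axis) by the number of R245W-only regions assigned to the gene (horizontal axis), ranked by −log10 q (left) or pile-up (right); points are means and bars SD of 3 libraries. The null line falls furthest, to 54.5 by −log10 q, and the R245W line changes least.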

How the data were processed

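ATAC-seq was analysed in 3 mouse osteosarcoma lines, 3 libraries each. Per the submitters' processing notes, reads were handled with bcl2fastq 2.17 and Trimmomatic 0.33, Bowtie 1.1.2 and deepTools, peaks with MACS2 2.1.0, on build GRCm38. Settings and any Tn5 shift: not given in the sources used here. The authors deposited 1 peak list per library, giving per peak a score, a ratio (fold over local background), a −log10 p-value and a −log10 q-value (lowest 1.30, a q of 0.05). The depth in reads is unknown. The summit pile-up and local background were solved from the deposited fold and p, which fit a Poisson tail; the most frequent background, a relative depth, ran from 4.77 to 6.39 and was 5.65 to 6.39 in R245W.

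Lists were merged at 1 bp overlap. Genes, promoters and microRNAs came from RefSeq tables (GRCm38.p6), of which the gene table gives spans without strand, so gene ends stood in for starts except in the promoter counts. Exact two-sided permutation tests over libraries were adjusted by Benjamini-Hochberg over 4 tests, with a threshold of 0.05. Of the 4, 2 reuse the calls of the rule and are given as descriptions without p. The other 2 group shared regions by the positions of R245W-only regions and so are not independent of the rule. Levels in 5 Mb windows needed 20 or more shared regions. The named genes were the 12 strongest regions, the 12 genes with the most (33 genes tied at 4, of which the 6 with the largest summed strength were taken), the 10 strongest at a gene end and up to 4 genes of each of the 25 lists with 3 or more genes hit; gene models lacking a proper name were skipped, and some items the rule names are left out of the text. The Irx clusters, Mir9-2, the unnamed transcript, the printed promoters and the genes named for open ends were chosen after their values were seen. Members and lists were chosen with earlier results of these data known. Merging, calls and pile-up recovery were tested on simulated data. Computation used Python 3.11.15 with scipy 1.17.1, pandas 2.3.3 and numpy 2.4.6, and plots matplotlib 3.10.9.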

Additional observations from a re-analysis of the deposited data

How the results depend on the processing

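The count of 7188 stayed within 1.5 times under every alternative run: 6986 with a −log10 q of 5 or more, 5238 with lists of equal length, 7445 with windows of 250 bp around summits, 6911 on autosomes, 10362 with calls in 2 or 3 of the 3 R245W libraries, and 7436 to 8669 with 1 library left out. The held-out rate difference changed sign with equal list lengths (0.766 points) and ran from -2.49 to 1.25 with 1 library left out, 0.0398 without R172H library 2 and 1.25 without R245W library 3. The near-region difference of 1.81 became -1.90 within 2 kb, -3.22 by fold and -0.224 centred on 5 Mb windows. It was 2.88 within 50 kb, 0.670 centred on chromosomes and 3.88 by pile-up (added after seeing the data), and 1.62 to 2.06 with 1 library left out. The gene-end difference of 4.56 became -0.822 by fold and 1.81 centred on 5 Mb windows, 2.79 centred on chromosomes, 6.08 by pile-up, 2.67 for genes with 1 or more R245W-only regions and 6.27 for 3 or more, and ran from 3.88 to 5.04 with 1 library left out. With 1 R245W library left out the smallest exact permutation p is 0.0714, so neither could pass. Regions at a gene end were 4.97% at 500 bp and 9.92% at 2000 bp. Deviations of libraries with the same replicate number were close to uncorrelated between lines (correlations from -0.0158 to 0.0219). The relative background nevertheless had the same replicate order in every line, lowest in library 1 and highest in library 2. Library 2 also had the most peaks in each line, so a pairing by replicate number is not excluded. With the replicate block the values were 1.81 and 4.56, with exact permutation p = 0.0741 for both, the smallest that 27 arrangements allow. A weak peak in one line and a near miss in another differ little, and depth, known only as relative background, limits calls at the low end.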

Other observations

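R245W-only regions also came in unbroken runs, with no region of another line between them. Of the 7188, 5638 stood alone, 583 runs held 2, 95 held 3, and 1550 regions in all lay in runs of 2 or more. The 2 longest runs held 7. One lay in the Pcdha cluster of chromosome 18, which encodes protocadherins of neuronal identity, over 68.3 kb within a stretch of 202 kb without a peak of the other lines, although the local R245W level at shared regions there was 0.61 below the others (-0.61). The other began outside Kcnmb2, which encodes a potassium channel subunit, and ran into the gene, over 187 kb within a stretch of 224 kb on chromosome 3, where the local level was 0.63 above the others. A run of 5 covered 23.8 kb of Filip1, a filamin-binding protein gene, on chromosome 9.

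In windows of 1 Mb the median count was 2, and 60 windows held 10 or more. The densest, with 18 of 85 regions, lay on chromosome 13 and held Map1b and Cartpt. Windows with 17 lay at Dek and Rnf144b on chromosome 13 and at Col15a1 and Tgfbr1 on chromosome 4. A window on chromosome 9 with Ltf and Stac had 15 of 48 (31.2%). The local level in these 4 windows was 0.52, 0.39, 0.32 and 0.28 above the other lines. The typical R245W-only region lay 6.20 kb from the nearest region of another line and 71.4 kb from another R245W-only region.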
